A study of Mus musculus with 22 samples.

Results

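Antibiotics that the gut does not absorb were set against plain water in mice given saline and no morphine, and the effect on messenger RNA of the nucleus accumbens was read across all expressed genes. The comparison uses the 6 libraries titled Abx_Saline and the 6 titled H2O_Saline, 12 of the 22 libraries in the study. The Abx_Saline mice had a microbiome depleted by the antibiotics, and the H2O_Saline mice kept a normal microbiome. All were male, conventionally raised C57BL/6J mice of 7 to 9 weeks, and the tissue was sequenced in bulk. The other 10 libraries came from mice given morphine at 20 mg/kg per day for 7 days, 5 with antibiotics (Abx_Morphine) and 5 with water (H2O_Morphine). Titles number the libraries but do not say which animals, cages or days the numbers mark, so every p-value refers to variation among libraries, which may be technical in part. Loss of gut bacteria and any other effect of the antibiotics cannot be told apart in this design.

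The nucleus accumbens is the ventral part of the striatum, and most of its neurons are GABAergic projection neurons. Its white matter comes from oligodendrocytes, which wrap axons in a lipid-rich membrane held together by a small set of abundant proteins and coupled to astrocytes by connexins. Microglia are the resident macrophages of the brain and depend on signalling through the receptor Csf1r, and corticosteroids released by the adrenal gland act on neurons and glia through the glucocorticoid receptor, a transcription factor.

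Counts assigned to genes ran from 9357299 to 12266485 per library over the 12 saline libraries. Markers of the labelled tissue were present in every library. Penk, the enkephalin precursor, had a lowest, median and highest level of 705, 1266 and 1574 CPM (counts scaled to library size) in antibiotic mice, against 1240, 1427 and 1630 CPM in water mice. Adora2a, the adenosine receptor of indirect-pathway neurons, had 129, 280 and 350 CPM in antibiotic mice, against 292, 358 and 446 CPM in water mice. Antibiotic library 5 held the lowest value of both. That library stood apart: the mean centred log2 CPM of 28 projection neuron genes, used here as a score, was -0.69, against -0.13 to 0.19 in the other antibiotic libraries and -0.15 to 0.33 in water libraries. Antibiotic library 6 had 2463 CPM of the nuclear RNA Malat1 and 15.4% of its counts outside annotated genes. Water library 4 had the lowest score of cortical and septal neuron markers, -1.28. The smallest p among 7 library measures was 0.0931, for the slope of expression on transcript length (exact permutation test, two-sided, n = 6 each; 0.424 after Benjamini-Hochberg adjustment over the 7). The slope averaged -0.0177 ± 0.0362 in antibiotic libraries and -0.0508 ± 0.0266 in water libraries (SD). Antibiotic library 6 had 0.0479, and the other antibiotic libraries had -0.0533 to -0.0084.

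A difference counted as past the threshold when the edgeR quasi-likelihood F-test, Benjamini-Hochberg adjusted over 14564 genes, gave an adjusted p under 0.05. Every adjusted p below comes from that test unless another is named, and log2 changes are antibiotics over water with a standard error. Nominal counts are of genes at an unadjusted p under 0.05, and 1256 genes were nominally higher and 1257 nominally lower in all. Antibiotics were followed by higher levels of 79 genes (0.542% of those tested) and lower levels of 126 (0.865%), 205 in all (1.41%). Most of these shifts were small. Only 8 of the higher genes and 2 of the lower genes changed 2-fold or more. The higher genes that did so include Plin4, Ltbp2, Hif3a, Usp51, Asf1b and Rasd1, and the 2 lower ones were Rpe65 and Klk6. Of these, Asf1b and Rpe65 had adjusted p of 0.0654 and 0.0755 without antibiotic library 4, and Ltbp2 had 0.0908 without water library 3, with the call lost for 10 of the 12 libraries left out in turn. In 44 of the 79 higher genes and 76 of the 126 lower genes the 6 antibiotic libraries lay wholly outside the range of the 6 water libraries. Over all genes tested, 0.632% were separated in this way with antibiotics higher and 1.01% with antibiotics lower.

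**Figure D1:**
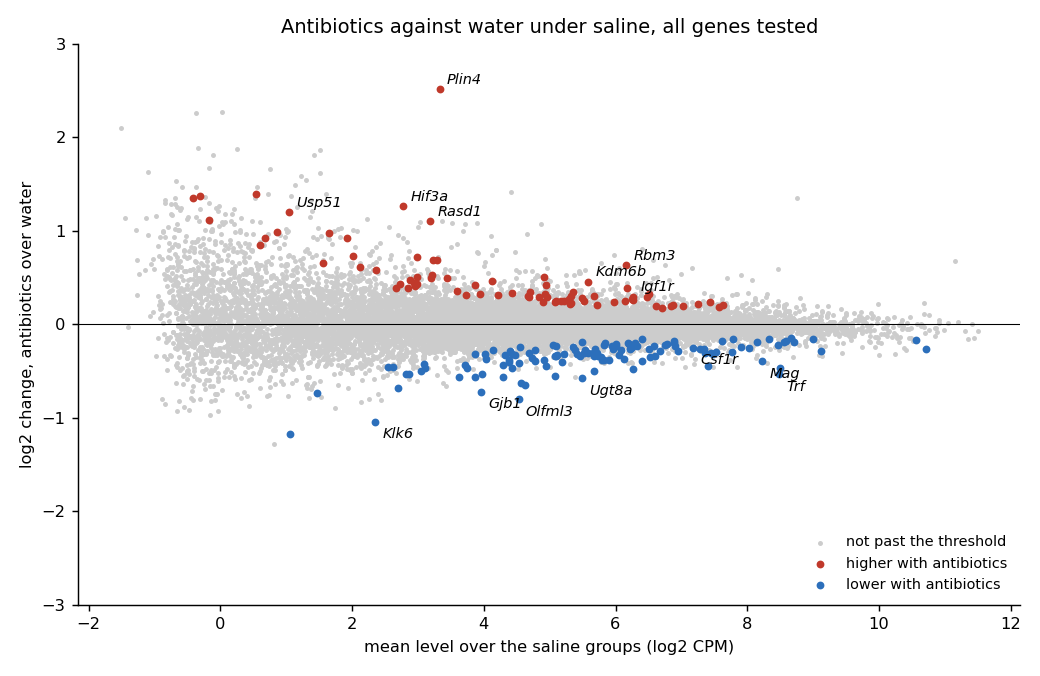
Log2 change, antibiotics over water (vertical), against mean level over the saline groups in log2 CPM (horizontal), 1 point per gene tested, with genes past the threshold coloured. Most coloured points lie within 1 log2 unit of 0, and Plin4, at 2.52, lies farthest from it.

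The number of calls depended on single libraries. Without antibiotic library 4 it was 48, and without antibiotic library 5 or 6 it was 92 or 96. Without antibiotic library 1 it was 409. Without water library 3, 5, 9, 8 or 4 it was 59, 108, 118, 131 or 136. Of the 78 genes followed one by one that passed, 33 passed with any single saline library left out. Without antibiotic library 4, 5 or 6, 42, 28 or 31 of the 78 missed the threshold, without antibiotic library 2 or 3, 10 or 12, and without antibiotic library 1, 0. Without water library 3, 4, 5, 6, 8 or 9 the number was 37, 21, 24, 18, 21 or 22. Where a gene below is given an adjusted p without a library, its highest over the 12 libraries left out in turn is shown. With the length slope as a covariate 45 genes passed and 55 of the 78 missed the threshold. With the cortical and septal score as a covariate 350 genes passed, and these held all 205.

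Transcripts of mature oligodendrocytes and myelin were lower with antibiotics. Of 36 listed genes, all measured, 19 fell and 0 rose, and all 36 had a negative log2 change, with a median of -0.30 beside 0.00383 over all genes tested. The number lower was 12 without antibiotic library 4 or 5 or without water library 3, and 9 with the length slope as a covariate. In 15 of the 36 the groups did not overlap. The summed level of the list was 7301 to 8619 CPM in antibiotic libraries, against 8844 to 10117 CPM in water libraries. Projection neuron markers summed to 9057 to 18227 CPM in antibiotic libraries, against 14062 to 20353 CPM in water libraries, and their part in the myelin result was not tested. In bulk tissue, fewer oligodendrocytes and less of these RNAs per cell cannot be told apart.

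The connexin gene Gjb1 and the transferrin gene were both lower. Gjb1, which encodes connexin 32, had a lowest, median and highest level of 9.03, 11.7 and 13.2 CPM in antibiotic mice, against 17.6, 19.7 and 20.6 CPM in water mice. No antibiotic library lay within the range of the water libraries, and the log2 change was -0.72 ± 0.097 (adjusted p = 0.001). Trf, which encodes the iron carrier transferrin, had 239, 288 and 363 CPM in antibiotic mice, against 391, 420 and 453 CPM in water mice, again without overlap. It was the 1 gene of 22 in the iron handling list that passed.

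Enzymes that make myelin lipids were among the genes that fell. Of 31 genes of fatty acid and sphingolipid synthesis, 6 fell and 0 rose, while 0 of 26 genes of cholesterol synthesis passed with edgeR, with DESeq2 or with limma-voom (nominally, 5 were lower and 0 higher). Lists share members, and Ugt8a here, like Trf above, also counts in another list, so calls of different lists are not all separate. Ugt8a, which makes galactosylceramide, had a lowest, median and highest level of 31.6, 35.9 and 40.1 CPM in antibiotic mice, against 48.7, 54.7 and 58.1 CPM in water mice. The groups were well apart, with a log2 change of -0.58 ± 0.086 (adjusted p = 0.0015). Fa2h, which hydroxylates the fatty acids of that lipid, fell by 0.38 ± 0.089 on the log2 scale and Gal3st1, which sulfates it, by 0.32 ± 0.078. Elovl7, a fatty acid elongase, fell by 0.37 ± 0.084. Smaller shifts were seen in Fads1, a fatty acid desaturase, with -0.19 ± 0.037 (adjusted p = 0.0155), and in Scd2, a stearoyl-CoA desaturase, with -0.17 ± 0.042 (adjusted p = 0.049). Fa2h, Gal3st1 and Elovl7 had adjusted p of 0.0995, 0.116 and 0.089 without antibiotic library 4, and Scd2 0.104 without water library 3.

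The proteins of the sheath itself did not all pass. Mag, an adhesion protein facing the axon, had a lowest, median and highest level of 215, 258 and 306 CPM in antibiotic mice, against 311, 344 and 372 CPM in water mice. Mog, on the outer surface of myelin, had 73.8, 86.6 and 93.9 CPM in antibiotic mice, against 102, 106 and 124 CPM in water mice. Neither overlapped between groups, and their log2 changes were -0.40 ± 0.070 (adjusted p = 0.00691) and -0.34 ± 0.065 (adjusted p = 0.0114). Both missed the threshold with the length slope as a covariate, with adjusted p of 0.0561 for Mag and 0.0607 for Mog. Mbp, myelin basic protein, had 2347, 2460 and 2598 CPM in antibiotic mice, against 2568, 2745 and 2884 CPM in water mice. These ranges overlapped, and neither Mbp (-0.16 ± 0.049, adjusted p = 0.0917) nor Mobp (-0.20 ± 0.073, adjusted p = 0.155), another basic protein of myelin, passed.

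Further genes of the same cells moved with them. Cldn11, the tight junction protein of myelin, fell by 0.31 ± 0.055 on the log2 scale and Cnp, a phosphodiesterase of its cytoplasmic channels, by 0.29 ± 0.063. Car2, carbonic anhydrase, fell by 0.30 ± 0.055, Enpp2, which encodes autotaxin, by 0.44 ± 0.077, and Gpr37, a receptor of oligodendrocytes, by 0.39 ± 0.061. Ppp1r14a, a phosphatase inhibitor, fell by 0.54 ± 0.089. Klk6, a secreted protease of oligodendrocytes, had 2.18, 3.38 and 4.55 CPM as lowest, median and highest level in antibiotic mice, against 4.94, 5.87 and 10.5 CPM in water mice, a log2 change of -1.04 ± 0.202. Ermn and Opalin, proteins of mature oligodendrocytes, passed narrowly, with adjusted p of 0.0418 and 0.0488, and had 0.115 and 0.13 without antibiotic library 4. Cnp had 0.0772 without that library.

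**Figure D2:**
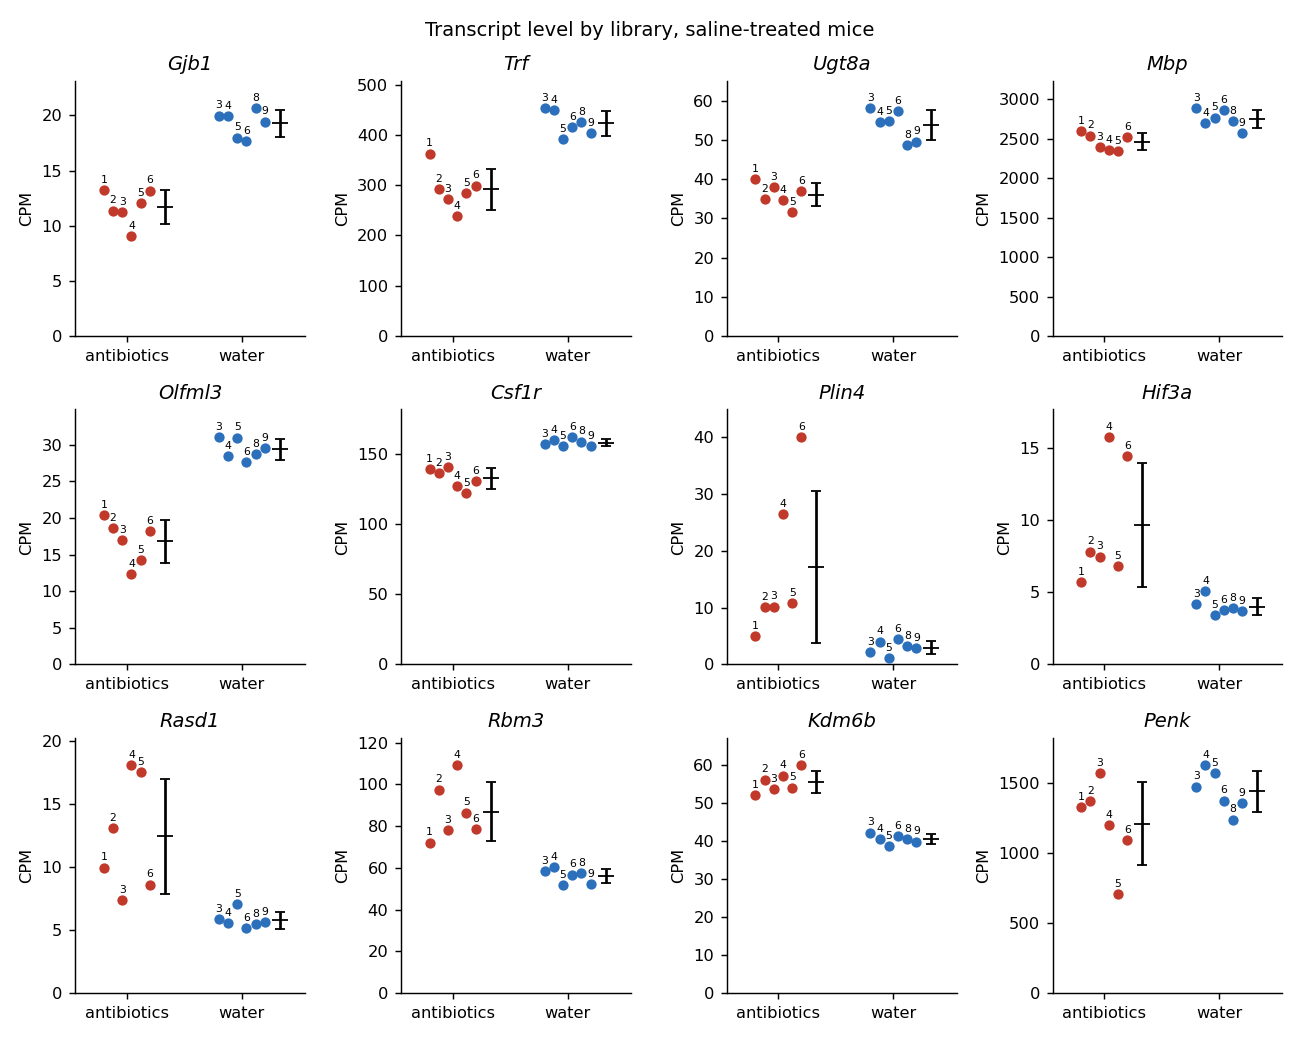
Level in CPM (vertical) of 12 genes in each saline library, antibiotics on the left and water on the right of each panel, with numbers giving the library and black marks the mean and SD of 6 libraries. Gjb1, Trf, Ugt8a, Olfml3, Csf1r, Plin4, Hif3a, Rasd1, Rbm3 and Kdm6b separate the groups, and Mbp and Penk overlap.

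Genes of earlier stages of the lineage gave 4 calls. Of 18 genes of precursors and newly formed oligodendrocytes, 4 fell and 0 rose, with a median of -0.08. Olig2 and Olig1, the transcription factors of the lineage, had log2 changes of -0.38 ± 0.077 and -0.28 ± 0.069. The markers of newly formed cells Bcas1 and Enpp6 had -0.32 ± 0.077 and -0.50 ± 0.121. Pdgfra and Cspg4, the surface markers of precursors, did not pass, with log2 changes of -0.10 ± 0.063 (adjusted p = 0.451) and -0.11 ± 0.063 (adjusted p = 0.396). Without antibiotic library 4 the adjusted p of Olig1, Bcas1 and Enpp6 was 0.113, 0.113 and 0.111, and without water library 3 that of Olig2 was 0.0505.

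Microglial transcripts were also lower. Of 28 listed genes, 9 fell and 0 rose, 27 had a negative log2 change, and the median was -0.25. The groups did not overlap in 9 of the 28. Summed over the list, antibiotic libraries had 868 to 1047 CPM, against 1071 to 1157 CPM in water libraries. Olfml3, a secreted protein made by microglia, had a lowest, median and highest level of 12.3, 17.6 and 20.4 CPM in antibiotic mice, against 27.6, 29.1 and 31.1 CPM in water mice. Csf1r, the receptor that microglia need to survive, had 122, 133 and 141 CPM in antibiotic mice, against 155, 158 and 162 CPM in water mice. Neither gene overlapped, and the log2 changes were -0.80 ± 0.125 (adjusted p = 0.00269) and -0.25 ± 0.041 (adjusted p = 0.0036). Fcrls, an Fc receptor-like protein of mouse microglia, fell by 0.55 ± 0.111 on the log2 scale and P2ry13, a purinergic receptor, by 0.47 ± 0.098. C1qa and C1qb, subunits of the first complement component, fell by 0.35 ± 0.072 and 0.33 ± 0.072. Cx3cr1, the fractalkine receptor, fell by 0.26 ± 0.064 and Itgam, an integrin subunit, by 0.34 ± 0.075. Tmem119 had non-overlapping groups yet did not pass (-0.32 ± 0.085, adjusted p = 0.0552).

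Without antibiotic library 4, 3 microglial genes passed, and the adjusted p of P2ry13, C1qa, C1qb, Cx3cr1 and Itgam was 0.0675, 0.0624, 0.0821, 0.123 and 0.0772. Without antibiotic library 6 or without water library 3, 5 microglial genes passed. With only the 12 saline libraries in the fit 4 did, and with the length slope as a covariate 2, where Fcrls had 0.111 and C1qa 0.126. A separate list of immune genes gave no call. Of 46 genes of complement, innate sensing and interferon (a list without the C1q genes), 0 passed with edgeR, with DESeq2 or with limma-voom, with a median of -0.05 and with 2 nominally higher and 4 nominally lower.

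Lysosomal genes fell at 5 of 36, with a median of -0.04. Tpp1, a tripeptidyl peptidase, had a lowest, median and highest level of 68.0, 73.3 and 80.02 CPM in antibiotic mice, against 83.2, 86.8 and 88.1 CPM in water mice. The groups did not overlap, and the log2 change was -0.23 ± 0.044 (adjusted p = 0.0129). Hexa, a hexosaminidase subunit, fell by 0.28 ± 0.061, and the cathepsins Ctsd and Ctsz by 0.19 ± 0.043 and 0.26 ± 0.064. Tpp1 passed with any single saline library left out but missed the threshold with the length slope as a covariate. The adjusted p of Hexa, Ctsd and Ctsz was 0.0834, 0.084 and 0.113 without antibiotic library 4.

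Vascular genes gave 4 calls and astrocyte genes 0 in edgeR. Of 26 endothelial genes, 20 had a negative log2 change, 15 were nominally lower and 1 nominally higher, with a median of -0.15. Past the threshold 4 fell and 0 rose. These were Itm2a, a membrane protein of endothelium (-0.33 ± 0.078), Eng, a TGF-beta co-receptor (-0.32 ± 0.079), Emcn, a sialomucin (-0.42 ± 0.108), and Bsg, a chaperone of lactate transporters (-0.17 ± 0.044). Their adjusted p lay between 0.102 and 0.13 without antibiotic library 4. Cldn5, the tight junction protein of the blood-brain barrier, lay at the threshold (-0.36 ± 0.092, adjusted p = 0.0503). Of 24 astrocyte genes 0 passed in edgeR or limma-voom and 2 in DESeq2, with 1 nominally higher and 6 nominally lower. Aqp4, the water channel of astrocyte endfeet, had 52.4, 56.6 and 64.9 CPM as lowest, median and highest level in antibiotic mice, against 56.9, 71.9 and 78.9 CPM in water mice (-0.29 ± 0.078, adjusted p = 0.0577).

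**Figure D3:**
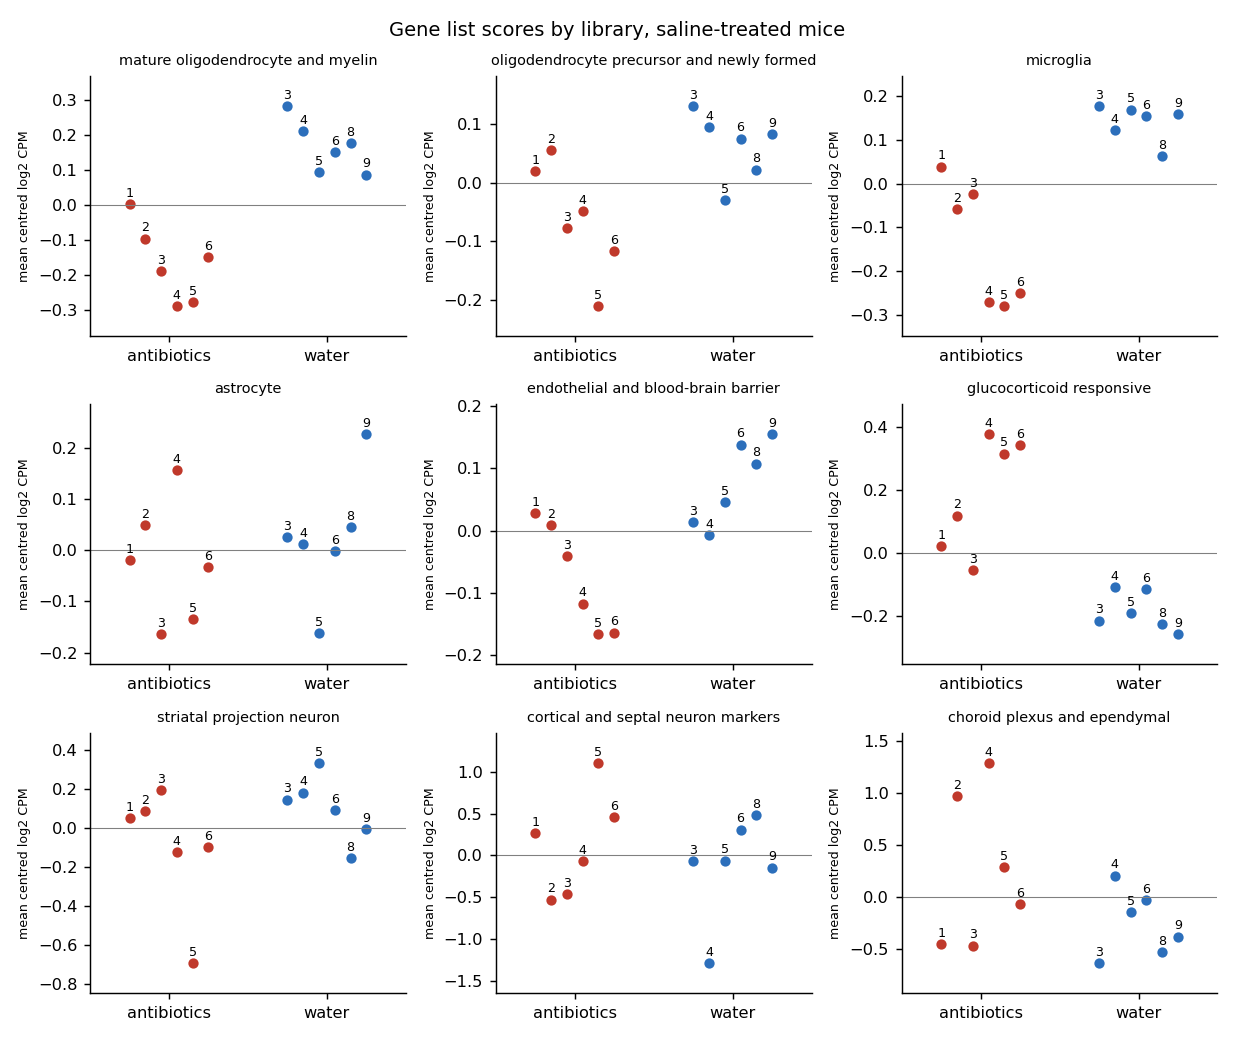
Score of 9 gene lists in each saline library, as the mean over members of log2 CPM centred on the 12 saline libraries (vertical), antibiotics left and water right, numbers giving the library. The myelin, microglia and glucocorticoid scores do not overlap between groups, and the other 6 do.

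Glucocorticoid-responsive genes were higher. Of 28 measured, 5 rose and 0 fell, 23 had a positive log2 change, and the median was 0.31. In 6 of the 28 the groups did not overlap. Plin4, a coat protein of lipid droplets, had a lowest, median and highest level of 5.02, 10.5 and 40.1 CPM in antibiotic mice, against 1.17, 3.05 and 4.46 CPM in water mice. Hif3a, a hypoxia-inducible factor subunit, had 5.69, 7.64 and 15.8 CPM in antibiotic mice, against 3.40, 3.83 and 5.11 CPM in water mice. Rasd1, a Ras-like protein first found as induced by dexamethasone, had 7.36, 11.5 and 18.1 CPM in antibiotic mice, against 5.14, 5.56 and 7.02 CPM in water mice. All 3 separated the groups, but the antibiotic libraries were spread widely, with library 6 highest for Plin4 and library 4 highest for Hif3a and Rasd1. Their log2 changes were 2.52 ± 0.432 (adjusted p = 0.00792), 1.26 ± 0.230 (adjusted p = 0.00986) and 1.11 ± 0.208 (adjusted p = 0.012). Klf15, a metabolic transcription factor, rose by 0.42 ± 0.089 on the log2 scale and Sult1a1, a sulfotransferase, by 0.69 ± 0.161.

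The classical targets Fkbp5 and Sgk1 did not pass. Fkbp5, a co-chaperone of the receptor, had 69.3, 74.9 and 105 CPM as lowest, median and highest level in antibiotic mice, against 59.4, 65.6 and 68.2 CPM in water mice. Its groups did not overlap, yet the adjusted p was 0.112 (0.32 ± 0.103). Sgk1, a kinase, had 103, 128 and 167 CPM in antibiotic mice, against 61.7, 81.7 and 113 CPM in water mice, with an adjusted p of 0.0592 (0.64 ± 0.168). The score of the list also varied inside the antibiotic group. It was 0.38, 0.31 and 0.34 in antibiotic libraries 4, 5 and 6 and 0.02, 0.12 and -0.05 in antibiotic libraries 1, 2 and 3, against -0.26 to -0.11 in water libraries. Microglial scores split along the same libraries, with -0.27, -0.28 and -0.25 in antibiotic libraries 4, 5 and 6 and 0.04, -0.06 and -0.02 in antibiotic libraries 1, 2 and 3, against 0.06 to 0.18 in water libraries. Endothelial scores were -0.12, -0.17 and -0.16 in antibiotic libraries 4, 5 and 6 and 0.03, 0.01 and -0.04 in antibiotic libraries 1, 2 and 3, against -0.01 to 0.15 in water libraries. Pericyte and smooth muscle scores were -0.07, -0.24 and -0.35 in antibiotic libraries 4, 5 and 6 and 0.18, 0.02 and 0.05 in antibiotic libraries 1, 2 and 3, against -0.02 to 0.16 in water libraries. Not every list followed this split. Myelin scores were -0.29, -0.28 and -0.15 in antibiotic libraries 4, 5 and 6 and 0.002, -0.10 and -0.19 in antibiotic libraries 1, 2 and 3. Astrocyte scores were 0.16, -0.13 and -0.03 in antibiotic libraries 4, 5 and 6 and -0.02, 0.05 and -0.16 in antibiotic libraries 1, 2 and 3. The labels give nothing that sets these libraries apart, and the part of this split in the results was not tested. In this list 3 genes passed without antibiotic library 4 or without water library 3, and with the length slope as a covariate 2 did. Klf15 and Sult1a1 had adjusted p of 0.0654 and 0.102 without antibiotic library 4, and that of Klf15 without water library 3 was 0.0559. With the length slope as a covariate Plin4 had 0.0650 and Hif3a 0.0932, and with only the 12 saline libraries in the fit Plin4 had 0.0717.

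Promoters of listed genes are shown because the glucocorticoid receptor binds a known DNA element. RefSeq windows of the 250 bases before the annotated start (build GRCm38.p6) matched 5 of 6 genes searched, Plin4, Hif3a, Klf15, Sult1a1 and Sgk1, and not Rasd1. Capitals mark matches, on either strand, to the full element, AGNACA and TGTNCT with 3 bases between, or to its part AGAACA, which the element can contain. The full element is in 0.0609% and the part in 16.1% of 32851 windows of this length. The windows are Plin4 at chr17:56109783-56110032 (minus strand), Hif3a at chr7:17062428-17062677 (minus strand), Sult1a1 at chr7:126676419-126676668 (minus strand) and Sgk1, the fifth of its 6 windows, at chr10:21993640-21993889 (plus strand), each written 5′ to 3′ on the strand of the gene. The Sgk1 window was chosen after its match was seen.
Plin4: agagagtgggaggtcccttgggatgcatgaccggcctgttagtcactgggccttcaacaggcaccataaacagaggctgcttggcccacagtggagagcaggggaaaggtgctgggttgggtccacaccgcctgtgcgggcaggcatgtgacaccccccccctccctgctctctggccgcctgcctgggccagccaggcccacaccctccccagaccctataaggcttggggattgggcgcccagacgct
Hif3a: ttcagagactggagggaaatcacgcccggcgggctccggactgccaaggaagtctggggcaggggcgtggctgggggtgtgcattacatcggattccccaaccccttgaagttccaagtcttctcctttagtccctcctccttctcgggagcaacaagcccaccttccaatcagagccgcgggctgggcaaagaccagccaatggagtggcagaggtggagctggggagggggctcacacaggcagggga
Sult1a1: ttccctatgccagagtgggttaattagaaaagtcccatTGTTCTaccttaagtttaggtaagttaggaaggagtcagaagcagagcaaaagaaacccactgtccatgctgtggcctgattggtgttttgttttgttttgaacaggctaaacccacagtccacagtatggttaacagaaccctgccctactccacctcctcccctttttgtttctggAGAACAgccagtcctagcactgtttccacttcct
Sgk1: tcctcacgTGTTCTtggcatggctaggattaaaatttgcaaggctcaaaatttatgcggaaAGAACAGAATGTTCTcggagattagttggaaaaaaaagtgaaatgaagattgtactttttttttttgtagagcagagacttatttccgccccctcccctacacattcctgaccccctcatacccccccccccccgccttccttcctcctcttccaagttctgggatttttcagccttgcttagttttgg
The full element was found in the Sgk1 window alone among 10 windows of the 5 genes. Plin4, Hif3a and Klf15 had no match to either in these windows, and Sult1a1 had 2 matches to the part. A match is a description of letters, and the absence of one says nothing of binding elsewhere.

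Some further genes passed outside these groups. Rbm3, an RNA-binding protein induced by cold, had a lowest, median and highest level of 72.1, 82.5 and 109 CPM in antibiotic mice, against 51.8, 57.1 and 60.3 CPM in water mice. It was the 1 gene of 19 in the cold and heat shock list that passed, and Cirbp, the other cold-induced RNA-binding protein of that kind, did not (0.26 ± 0.104, adjusted p = 0.205). Hspa2, a heat shock gene outside that list, passed as higher (adjusted p = 0.012). Kdm6b, which removes methyl groups from histone H3, had 52.2, 55.2 and 59.996 CPM in antibiotic mice, against 38.6, 40.5 and 42.3 CPM in water mice. Rbm3 and Kdm6b each separated the groups, with log2 changes of 0.63 ± 0.087 (adjusted p = 0.001) and 0.46 ± 0.065 (adjusted p = 0.00111). Kdm5b, another histone demethylase, rose by 0.18 ± 0.046 (adjusted p = 0.048, and 0.119 without antibiotic library 4). These 2 were the members past the threshold among 55 chromatin enzymes, whose median was 0.11. Of the 55, 20 were nominally higher and 0 nominally lower.

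Signalling genes gave single calls. Unc5b, a netrin receptor, fell by 0.50 ± 0.081 on the log2 scale (adjusted p = 0.0036) and passed with any single library left out. Crkl, an adaptor protein, and Rapgef1, the exchange factor that it binds, rose by 0.25 ± 0.044 and 0.20 ± 0.041. Igf1r, the receptor of insulin-like growth factor, rose by 0.29 ± 0.073, while Fgfr2, a fibroblast growth factor receptor, fell by 0.23 ± 0.058. Rgs4, which shortens G-protein signalling, fell by 0.47 ± 0.110, and was the 1 gene of 45 in dopamine and cyclic AMP signalling that passed. Fzd1, a Wnt receptor, rose by 0.72 ± 0.176, Col5a1, a collagen chain, by 0.73 ± 0.179, and Sox11, a transcription factor of immature neurons, by 0.50 ± 0.112. Sox11 was the 1 gene of 22 in the cell cycle and immature neuron list that passed. The median of that list was 0.35, with 18 genes positive, 9 nominally higher and 2 nominally lower. Scores of the list ran from -0.29 to 0.55 in antibiotic libraries, against -0.40 to 0.15 in water libraries. Without antibiotic library 4, Igf1r, Rgs4, Fzd1, Col5a1 and Sox11 had adjusted p of 0.113, 0.0916, 0.119, 0.119 and 0.084, and Fgfr2 had 0.101 without water library 3. Gatm and Gamt, the enzymes of creatine synthesis in sequence, were both lower, by 0.29 ± 0.058 and 0.56 ± 0.129 on the log2 scale. They were picked out after their values were seen, and Gamt had an adjusted p of 0.0821 without antibiotic library 4.

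**Figure D4:**
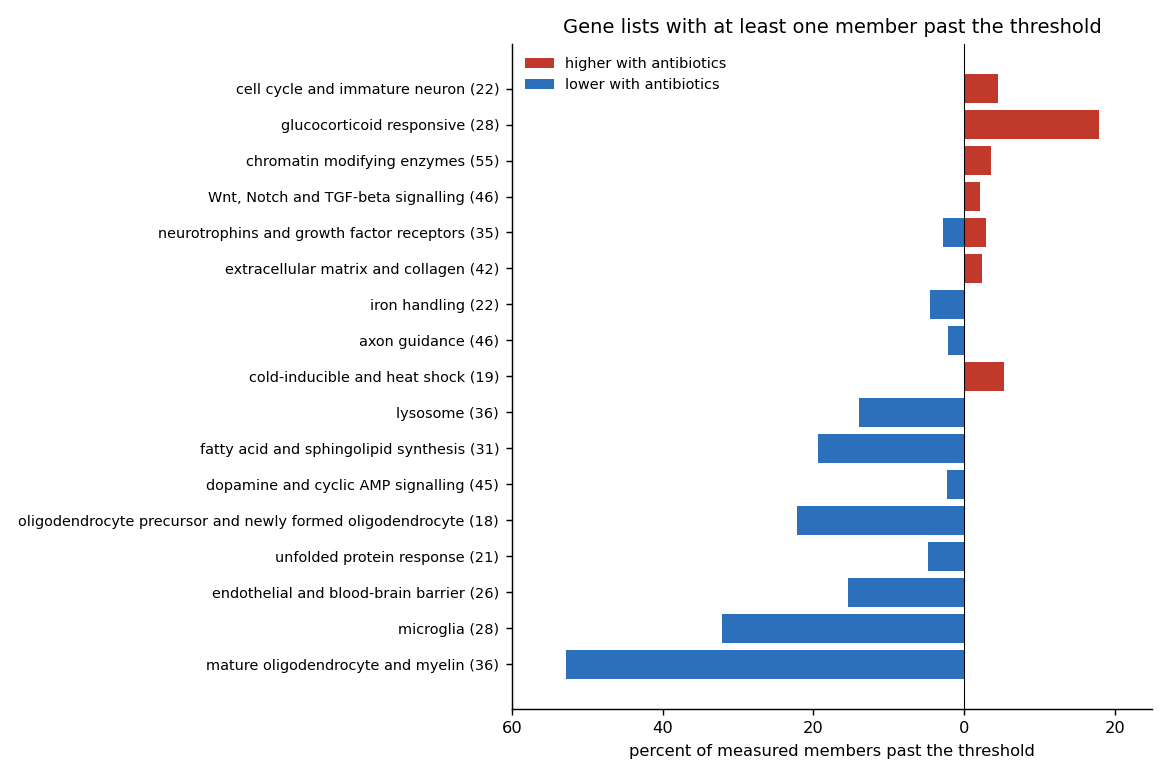
Share of measured members past the threshold (horizontal, in percent) for the 17 lists with at least 1 such member, with lower genes to the left and higher genes to the right and the number measured in parentheses. Lists run from the highest median log2 change at the top to the lowest at the bottom, and the myelin list, at 52.8%, has the longest bar.

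Genes of neurons gave almost no calls. Of 28 projection neuron genes 0 passed with edgeR, with DESeq2 or with limma-voom, with 0 nominally higher, 3 nominally lower and a median of -0.21. In this list 25 genes had a negative log2 change and 3 a positive one, so the absence of calls does not show the absence of a shift. Drd1, listed as Drd1a, and Drd2, the dopamine receptors of the direct and indirect pathways, had log2 changes of -0.14 ± 0.148 and -0.32 ± 0.169. Pdyn, the dynorphin precursor, had -0.23 ± 0.165, Penk -0.25 ± 0.143 and Adora2a -0.41 ± 0.193. Antibiotic library 5 held the lowest value of each. Oprm1, the mu-opioid receptor, had 1.62, 4.04 and 7.48 CPM as lowest, median and highest level in antibiotic mice, against 2.84, 3.47 and 4.77 CPM in water mice, and did not pass (0.21 ± 0.238, adjusted p = 0.699). Of 24 cortical and septal neuron markers 0 passed in edgeR, with a median of 0.30, 18 positive and 6 negative log2 changes. In that list 1 gene passed in DESeq2, and 1 was nominally higher and 1 nominally lower. The lists of glutamate receptors (34 genes), GABA and glycine synapse (27), potassium channels (46) and synaptic vesicles (39) likewise gave 0 calls in edgeR, with 2, 1, 2 and 0 genes nominally higher and 6, 3, 3 and 2 nominally lower. DESeq2 called 1 glutamate receptor gene and 0 in the other 3 lists.

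Lists of energy metabolism and ribosomal proteins also gave no calls in edgeR. Of 73 nuclear genes of oxidative phosphorylation 0 passed in edgeR and 1 in DESeq2, with a median of -0.06 and 15 nominally lower and 0 nominally higher. In that list 64 genes had a negative log2 change. Of 34 genes of glycolysis and the citric acid cycle 0 passed in edgeR and 2 in DESeq2, with 5 nominally lower and 0 nominally higher. Of 76 cytosolic ribosomal protein genes 0 passed in either and 0 did so nominally. Of 17 genes for the use of short-chain fatty acids, which gut bacteria make, and of ketone bodies, 0 passed in either, with 1 nominally higher and 4 nominally lower. In all, 25 of the 42 lists had 0 members past the threshold in edgeR.

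The same genes were then read in the 10 morphine libraries, which share no sample with the saline comparison, although the fit shares its estimate of spread. Of the 79 genes higher under saline, 75 had the same direction with antibiotics under morphine, and 47 also passed there, where 8.42% of all genes passed as higher. Of the 126 lower genes, 124 had the same direction and 104 also passed, where 9.58% of all genes passed as lower. None passed in the opposite direction. Of all genes tested, 50.1% had a positive change under morphine. The genes past the threshold in both were 59.5% of the higher genes under saline and 3.83% of the 1226 higher under morphine, and 82.5% of the lower genes under saline and 7.46% of the 1395 lower under morphine. A direct test of the difference between both changes passed for 68 genes (0.467%), and 1 of these, Cldn11, was among the 205. Cldn11 averaged 156 ± 14.2 CPM with antibiotics and 193 ± 13.6 CPM with water under saline (SD, n = 6 each), and 177 ± 6.71 CPM with antibiotics and 168 ± 7.61 CPM with water under morphine (SD, n = 5 each). The difference, morphine minus saline, was 0.38 ± 0.082 on the log2 scale (adjusted p = 0.0335). The length slope lay between 0.0256 and 0.0549 in the morphine libraries. In the saline libraries it was 0.0479 in antibiotic library 6 and -0.078 to -0.0084 in the rest.

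**Figure D5:**
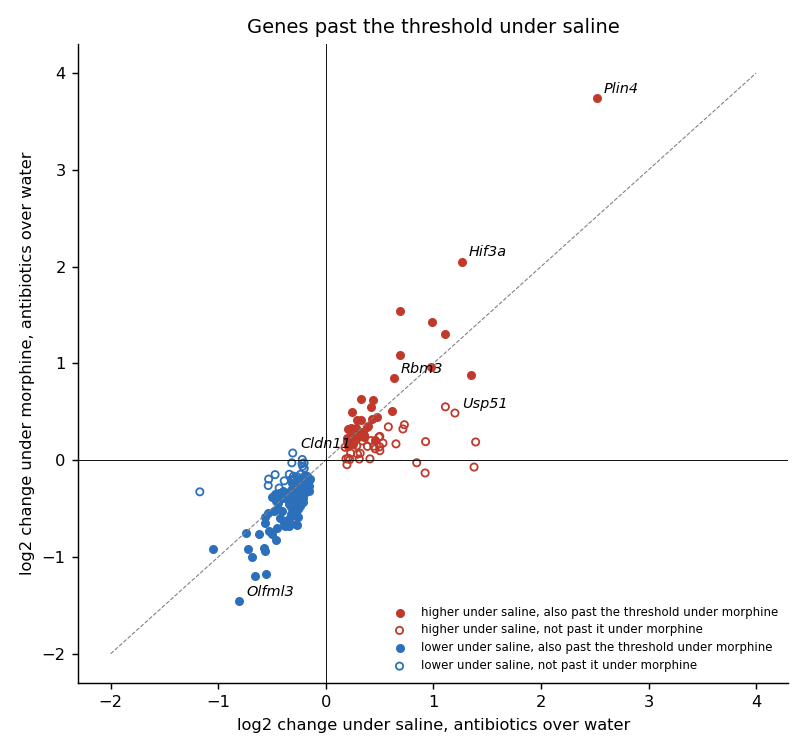
Log2 change of the 205 genes, antibiotics over water, under saline (horizontal) and under morphine (vertical), with filled points for genes that also passed under morphine and the dashed line marking equal change. All but 6 genes lie in the lower left or upper right of the axes.

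Among the lists, microglial genes fell at 18 of 28 and rose at 1 of 28 under morphine, while 9 fell and 0 rose under saline, and the difference passed for 0 of them. Olfml3 had a log2 change of -1.45 ± 0.143 under morphine and -0.80 ± 0.125 under saline, and the difference did not pass (adjusted p = 0.134). Glucocorticoid-responsive genes rose at 18 of 28 under morphine and 5 of 28 under saline. The difference passed for 3 of the 28, Fkbp5 (0.79 ± 0.151, adjusted p = 0.0206), Cdkn1a, a cell cycle inhibitor (1.26), and Arrdc2, an arrestin-domain protein (1.05). Plin4 had 3.74 ± 0.431 under morphine and 2.52 ± 0.432 under saline, and its difference did not pass (adjusted p = 0.442). Myelin genes fell at 16 of 36 and rose at 3 of 36 under morphine, while 19 fell and 0 rose under saline, and the difference passed for 1 of the 36, Cldn11.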

How the data were processed

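RNA of the nucleus accumbens was extracted with TRIzol and copied with the SMARTer kit, per the labels' protocols. As molecule the labels give polyA RNA, but total RNA went into the cDNA reaction. The authors deposited raw read counts per gene, and the submitters' processing notes name STAR 2.4.0, FastQC and edgeR. Genome build, annotation and strandedness are items not given in the sources used here. Whether a read came from the strand of its gene or from the other strand therefore cannot be told. Reads that fit more than 1 gene, 1.25% to 1.44% of a saline library's counts, were set aside as ambiguous. Summary entries for unassigned reads, 20.6% to 26.4% of a saline library's counts, were removed. Reads aligned more than once are absent from genes, so paralogs rest on unique reads. The deposited table of normalised values was not used.

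Analysis used R 4.3.3, edgeR 4.0.16, limma 3.58.1 and DESeq2 1.42.0. Of 24061 genes, filterByExpr by group kept 14564. All 22 libraries entered 1 model of 4 groups, with TMM scaling and robust quasi-likelihood dispersion. Tests were two-sided F-tests with Benjamini-Hochberg adjustment and a threshold of 0.05. The standard error is the log2 change divided by the square root of F. CPM used TMM-scaled gene counts, log2 CPM a prior count of 2, and transcript lengths GENCODE annotation (95.4% of genes tested). The labels give no batch. Within groups, the counts of 30 library pairs differed by 3.51 to 23.0 times the sampling variance, so none was counted as a repeat. The pipeline was tested on simulated counts.

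The members, the 42 gene lists, the tests and alternatives were chosen with earlier results of these data known. The rule names 15 genes in each direction by smallest p and 8 by largest change, up to 4 per list, 8 reference genes, and genes whose difference between treatments passed, leaving out clone, predicted and date-like names. A few genes that it selects are left unreported. Outside that rule, chosen after their values were seen, are Gal3st1, Scd2, Mog, Mbp, Cnp, Mobp, Ermn, Opalin, Car2, Pdgfra, Cspg4, C1qb, Cx3cr1, P2ry13, Itgam, Tmem119, Ctsz, Cldn5, Sult1a1, Fkbp5, Sgk1, Cirbp, Gatm, Gamt, Fabp7, Cdkn1a, Arrdc2 and Malat1. Most lists of other cell types hold genes that striatal cells also express.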

Additional observations from a re-analysis of the deposited data

Results flagged for a closer look

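Single libraries that stood far from the other 5 of their group, by Dixon's criterion, are given here as values. Chance marks about 1 in 20 groups, and 228 groups were tested. Antibiotic library 5 was lowest for Drd1a (138 CPM), Drd2 (68.5 CPM), Pdyn (180.4 CPM), Adora2a (129 CPM) and the projection neuron score (-0.691). Antibiotic library 6 had the highest Malat1, 2463 CPM. Antibiotic library 4 was highest for Klf15 (43.5 CPM) and Crkl (86.8 CPM), and antibiotic library 1 for C1qa (60.8 CPM), Ctsz (54.4 CPM) and Cdkn1a (29.6 CPM). Water library 4 was lowest for Scd2 (1519 CPM) and the cortical and septal score (-1.28), and water library 9 for Hspa2 (31.6 CPM). Water library 5 had the fewest genes detected, 16806, and water library 6 the highest Malat1 of its group, 396 CPM.

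For 5 named genes the antibiotic change differed between morphine and saline mice by the test of that difference. In log2, morphine minus saline, it was 0.38 for Cldn11 (adjusted p = 0.0335), 0.79 for Fkbp5 (adjusted p = 0.0206), 1.26 for Cdkn1a (adjusted p = 0.00826), 1.05 for Arrdc2 (adjusted p = 0.0206) and -1.15 for Fabp7, a fatty acid binding protein (adjusted p = 0.00163). Fabp7 had a log2 change of -1.40 ± 0.120 under morphine and -0.26 ± 0.106 under saline, where it did not pass (adjusted p = 0.212).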

How the results depend on the processing

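The 205 calls (79 higher, 126 lower) became 420 with DESeq2 (204 and 216, so 48.6% higher against 38.5%), 350 with the cortical score (150 and 200), 67 with only the 12 saline libraries (23 and 44), 45 with the length slope (18 and 27) and 518 at an adjusted p under 0.1. Correlations of deviations between saline libraries of the same number were 0.0848, 0.348, -0.0503 and 0.184 for numbers 3, 4, 5 and 6. Only antibiotic library 4 had its closest match in the water library of its number. Whether the numbers mark pairs cannot be told from these few values. With the numbers as a block, the replicate block, 105 passed (33 and 72), and 75 of these were among the 205. Leaving out 1 saline library gave 48 to 409 calls, 13 to 168 higher and 35 to 241 lower. The 68 differences between treatments became 181 with DESeq2, 10 with the replicate block, 162 with the cortical score and 33 to 74 with 1 library left out. Myelin calls (19) were 9 with the length slope and 12 to 23 with 1 library left out. Microglial calls (9) were 4 with only the saline libraries, 2 with the length slope and 3 to 12. Glucocorticoid calls (5) were 9 with DESeq2, 3 with the block, 2 with the length slope and 3 to 7. Without antibiotic library 6 and Abx_Morphine library 4 together, 74 genes (28 higher, 46 lower) and 3 microglial genes passed. The cause was not tested. Oprm1 reversed to -0.066 with the length slope and -0.046 without both high-Malat1 libraries, and lay between -0.046 and 0.366 with 1 library left out, negative without antibiotic library 6, and Malat1 to -0.32 with the length slope. Other size factors, no low-count filter, limma-voom and non-robust dispersion gave 214, 153, 206 and 206 calls. Of the 78 genes followed one by one that passed, 21 did so under every alternative. Depth sets the precision of genes near 1 CPM, such as Ltbp2 and Asf1b.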

Other observations

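Several genes past the threshold were not described with the groups above, and which cells express them was not tested. Higher with antibiotics were Hspa2, a heat shock protein of the 70 kDa class (0.35 ± 0.068), Myt1, a zinc finger protein of neural precursors (0.46 ± 0.096), Spaca6, a sperm-egg fusion protein (0.44 ± 0.078), Edrf1 (0.30 ± 0.063), Ccdc6 (0.27 ± 0.057) and Zfp568 (0.93 ± 0.193). Myt1, Ccdc6 and Zfp568 had adjusted p of 0.0633, 0.0624 and 0.0654 without antibiotic library 4, and without water library 3 that of Edrf1 was 0.0559. Usp51, a deubiquitinase, had a lowest, median and highest level of 1.93, 2.72 and 4.22 CPM in antibiotic mice, against 0.794, 1.19 and 1.63 CPM in water mice, without overlap. Lower were Insc, a protein of spindle orientation (-0.68 ± 0.129), Hist1h2bc, a histone (-0.62 ± 0.126), Micall1 (-0.31 ± 0.054), Tmem63a, a stretch-activated channel (-0.34 ± 0.059), Cdc42ep1 (-0.39 ± 0.069) and Tnfsf10, a death receptor ligand (-0.74 ± 0.168). Hist1h2bc and Tnfsf10 had adjusted p of 0.0593 and 0.0849 without antibiotic library 4. Hsp90b1, a chaperone of the endoplasmic reticulum, fell by 0.19 ± 0.042 and was the 1 gene of 21 in the unfolded protein response that passed. That call was lost for 5 of the 12 libraries left out in turn, with an adjusted p of 0.0654 without antibiotic library 4.

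Ependymal transcripts varied between libraries. Ccdc153, a gene of motile cilia, had 6.83, 10.1 and 5.63 CPM in antibiotic libraries 2, 4 and 5 and 0.841 to 1.53 CPM in the other antibiotic libraries, against 0.265 to 3.10 CPM in water libraries, and did not pass (adjusted p = 0.227). Of 9 choroid plexus and ependymal genes 0 passed with edgeR, with DESeq2 or with limma-voom, although 3 were nominally higher and 0 nominally lower. All 9 had a positive log2 change, with a median of 0.37.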
